A study of Mus musculus with 9 samples.

Results

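The genes described here are 10 mouse receptors that bind modified lipoproteins, lipids or dying cells: Msr1, Marco, Cd36, Scarb1, Lrp1, Cd163, Stab1, Cd68, Trem2 and Mertk. They were taken as a named list, and their symbols were matched to Ensembl IDs with the GENCODE M21 annotation of the mouse build GRCm38. All 10 were among the 55536 genes of the count table, and all 10 were among the 13815 genes that passed the filter on low counts. The levels come from RNA sequencing of bone marrow-derived macrophages (BMDM), grown with the growth factor M-CSF at 25 ng/mL over 6 days from the marrow of male mice aged 6 to 12 weeks. All recipient cells were of wild-type genotype. For 18 hours they received exosomes of BMDM from ApoE-deficient mice (labelled EKO-BMDM-exo), exosomes of BMDM from wild-type mice (WT-BMDM-exo), or PBS as the control. Exosomes, small vesicles that cells release, were given at 2000000000 particles/mL, and the files hold no measurement of their cargo. There were 3 libraries in each of the 3 groups, called biological replicates by the submitters. Separate mice or separate exosome preparations are not stated, and the p-values therefore reflect only how these libraries varied, which may be technical.

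Scavenger receptors take up oxidised or acetylated lipoproteins, microbial surfaces and cell debris. Their uptake is not shut down when the cell fills with cholesterol, and in the artery wall such uptake turns macrophages into foam cells. MSR1 and MARCO are class A receptors with a collagen-like stalk, CD36 and SCARB1 are class B receptors that pass lipid to the membrane, and CD68 is a glycoprotein of late endosomes and lysosomes. LRP1 is a large endocytic receptor for ApoE-bearing remnants and many other ligands, CD163 clears haemoglobin bound to haptoglobin, and STAB1 takes up acetylated LDL and matrix fragments. TREM2 binds lipids and ApoE and signals through the adaptor TYROBP. The kinase MERTK engages phosphatidylserine on dying cells through the bridging proteins GAS6 and PROS1.

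Lrp1 and Cd36 rose after ApoE-deficient exosomes and Cd68 rose after wild-type exosomes, each by under 10% against PBS. The promoter windows of these 3 receptors are shown because theirs are the differences that passed the threshold, an edgeR adjusted p under 0.05. The calls of Cd36 (0.0498) and Cd68 (0.049) were close to it, and none of the 3 passed between the exosomes. Each window holds the 250 bases before the start site in RefSeq (GRCm38.p6), read 5′ to 3′ on the gene's own strand. Capitals mark matches to the motifs named after the sequences.
Lrp1: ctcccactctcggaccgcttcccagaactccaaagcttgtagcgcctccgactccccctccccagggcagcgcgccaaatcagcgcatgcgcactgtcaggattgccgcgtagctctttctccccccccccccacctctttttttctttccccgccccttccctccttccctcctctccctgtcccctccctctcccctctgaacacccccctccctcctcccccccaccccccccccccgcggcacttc
Cd36: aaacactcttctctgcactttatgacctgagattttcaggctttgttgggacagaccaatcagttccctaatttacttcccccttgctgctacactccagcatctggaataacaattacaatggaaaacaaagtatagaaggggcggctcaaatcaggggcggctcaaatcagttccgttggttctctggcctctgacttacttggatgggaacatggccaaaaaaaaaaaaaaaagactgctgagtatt
Cd68: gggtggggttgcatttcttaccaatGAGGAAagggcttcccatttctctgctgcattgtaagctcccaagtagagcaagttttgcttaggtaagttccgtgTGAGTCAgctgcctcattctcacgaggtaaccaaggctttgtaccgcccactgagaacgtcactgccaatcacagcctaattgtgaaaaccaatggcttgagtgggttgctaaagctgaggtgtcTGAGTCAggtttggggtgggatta
The Lrp1 window lies at chr10:127621149-127621398 on the minus strand and 67.2% of its bases are G or C. The Cd36 window lies at chr5:17835897-17836146 on the minus strand, inside the span that GENCODE gives the gene, and has 43.2% G and C. The Cd68 window lies at chr11:69666171-69666420 on the minus strand and has 49.2% G and C. Both strands were searched for GAGGAA, a core bound by the macrophage factor PU.1, for TGANTCA, bound by AP-1, for TCACNCCAC, a sterol element of SREBP, for the nuclear receptor direct repeats of PPAR and of LXR, for TATAAA and for the E-box CACGTG. The Cd68 window holds GAGGAA once, 225 bases before the start, and TGANTCA at 149 and at 24 bases before it. Neither the Lrp1 nor the Cd36 window holds any of these letters. Of 32851 windows of this length, 23.3% hold GAGGAA, 6.75% TGANTCA, 12.4% TATAAA, 6.02% CACGTG, 1.05% TCACNCCAC, 0.0335% the PPAR repeat and 0.0152% the LXR repeat. The motifs do not share positions in the windows shown. Such a match describes the sequence and is no evidence of binding. Windows were found for 8 of the 10 receptors. Trem2, which is described further on, has both a PU.1 and an AP-1 match in its window at chr17:48346151-48346400 on the plus strand, 40 and 9 bases before the start.

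The libraries held 28581306 to 35929596 counts each, with 17150 to 18680 genes detected. In a principal component analysis, replicate 3 of wild-type exosomes stood apart on component 1 (65.7 against -22.7 to 14.7). Replicate 2 of wild-type exosomes (53.4) and replicate 2 of ApoE-deficient exosomes (-39) stood apart on component 2. Calls that end when a library is left out are given beside each result. The cell type label was checked against 8 macrophage markers, among them Csf1r, Adgre1, Fcgr1, Cd14, Itgam, Lyz2 and Mrc1, all of which passed the filter. They summed to 20430 to 21630 CPM (the count scaled to a common library size with TMM factors) after PBS, 18450 to 19250 after wild-type exosomes and 18370 to 19430 after ApoE-deficient exosomes. Of these 8 markers, 7 fell past the threshold after ApoE-deficient exosomes and 6 after wild-type exosomes, and 1 was lower after ApoE-deficient than after wild-type exosomes. Of all genes, 2.41%, 2.18% and 0.413% were lower in these comparisons. For Itgam 68.7% and for Csf1r 15.1% of the exon length is shared with other genes. Neutrophil markers (4 of 8 past the filter) summed to 11.7 to 20.0 CPM after PBS, 6.92 to 18.7 after wild-type and 2.43 to 12.3 after ApoE-deficient exosomes. Fibroblast markers (4 of 5) summed to 8.91 to 63.8, 16.6 to 29.5 and 5.85 to 24.6 CPM, and osteoclast markers (4 of 6) to 14.1 to 19.2 CPM over all libraries. B cell markers (1 of 5) summed to 1.08 to 2.16 CPM after PBS, 0.244 to 0.589 after wild-type and 0.756 to 1.25 after ApoE-deficient exosomes. No marker of dendritic cells, T and NK cells, mast cells or erythroid cells passed the filter, and 3 of 4 mast cell and 3 of 4 erythroid markers were at 0 in every library. The part of these markers in the results on the receptors was not tested. In bulk RNA, fewer cells of a type and less RNA per cell cannot be told apart.

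The receptors spanned a wide range of levels. Per kilobase of merged exons, the scale on which genes can be compared, Cd68 was highest after PBS at 1987 ± 31.9 CPM per kb (SD, n = 3 here and below). It was followed by Lrp1 at 356 ± 11.0, Stab1 at 226 ± 10.5 and Trem2 at 216 ± 8.59 CPM per kb. The libraries of Stab1 and Trem2 overlapped, so their order is not resolved. Cd36 stood at 164 ± 4.34, Mertk at 55.8 ± 2.05, Msr1 at 23.8 ± 1.61 and Scarb1 at 13.0 ± 1.24 CPM per kb, each separate from its neighbours in all libraries. Marco (0.498 ± 0.184) and Cd163 (0.407 ± 0.0922) were near the bottom of the measurable range and overlapped. The order was the same after wild-type exosomes. After ApoE-deficient exosomes the only change was that Cd163, at 0.289 ± 0.0764 CPM per kb, stood above Marco, at 0.0834 ± 0.0802. The order depends on the choice of gene length. With the longest protein-coding transcript, Trem2, whose length then falls from 4946 to 1088 bases, was second at 982 ± 39.0 CPM per kb, ahead of Lrp1 and Stab1. Scarb1 (43.9 ± 4.17) then stood above Msr1 (41.5 ± 2.81) and Cd163 (0.5 ± 0.113) above Marco, both by less than the SD. The last of these exchanges also occurred with the longest transcript of any kind. The 10 receptors took 1.3% to 1.364% of all counts after PBS, 1.371% to 1.421% after wild-type and 1.379% to 1.401% after ApoE-deficient exosomes. The PBS libraries were below all others in this share, to which Lrp1 gave the most counts. The gap was narrow, from 1.364% to 1.371%, and no like share of other gene sets was computed, so the separation carries little weight.

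**Figure D1:**
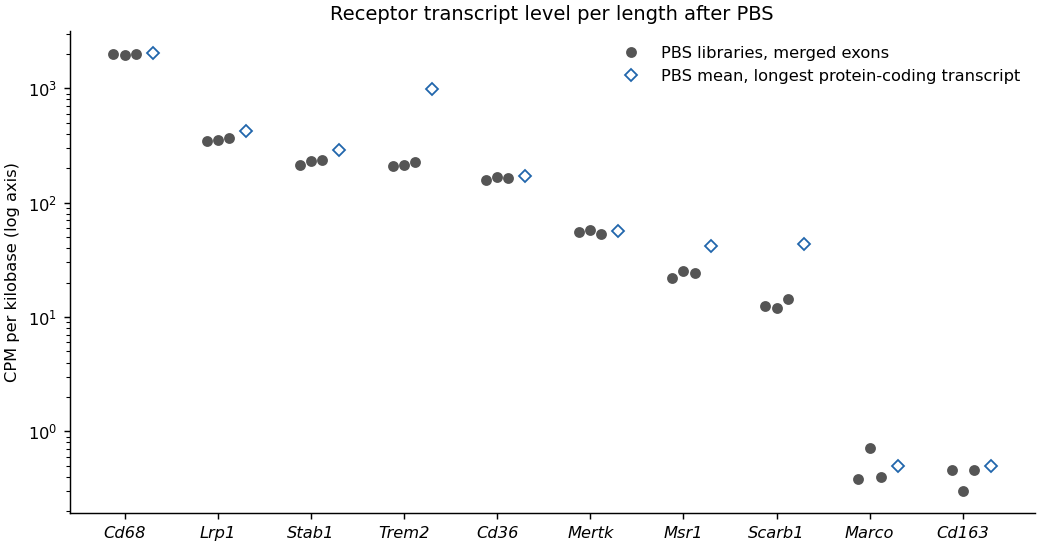
Level of each receptor after PBS in CPM per kilobase on a log axis, with filled points for the 3 PBS libraries by merged exon length and open diamonds for the PBS mean by the longest protein-coding transcript. Cd68 is highest at 1987 CPM per kb, Marco and Cd163 lie under 1, and the diamond of Trem2, at 982, is the one farthest from its points.

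Against PBS, macrophages given ApoE-deficient exosomes had more Lrp1 and Cd36 transcript, with changes of 7.12% and 8.63%. No receptor fell past the threshold. Of the 10 receptors, 2 passed, both higher, against 4.23% of all 13815 genes (1.82% higher and 2.41% lower). The libraries of the groups did not overlap for 3 receptors (Lrp1 higher, Marco and Mertk lower), beside 18.3% of all genes. Marco reached the filter level in 0 libraries of ApoE-deficient exosomes. It was tested only through the other groups, so its separation carries no weight here. The median log2 fold change was -0.02 over the receptors and -0.00052 over all genes. At an unadjusted p under 0.05 there were 6 receptors by edgeR, 6 by DESeq2 and 6 by limma-voom, beside 1805 of all 13815 genes by edgeR. After adjustment 2, 2 and 1 receptors passed. For all receptors but Marco and Cd163, the SE of the log2 fold change was 0.025 (Lrp1) to 0.059 (Scarb1). The median SE over all genes was 0.127, so the shares over all genes are not matched to the receptors in precision.

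Wild-type exosomes against PBS gave 1 receptor past the threshold, Cd68, which was higher by 6.76%, beside 4.11% of all genes (1.93% higher and 2.18% lower). The libraries did not overlap for 6 receptors, against 17.5% of all genes. These were Cd36, Cd68, Trem2 and Lrp1, with higher values, and Marco and Cd163, with lower values. The SE was 0.025 (Lrp1) to 0.036 (Cd36) for the higher receptors, 0.45 for Cd163 and 0.90 for Marco. Over all genes its median was 0.127, so the share of all genes is not matched in precision. Marco reached the filter level in all PBS libraries but in 2 of wild-type exosomes, so its separation carries little weight. The median log2 fold change of the receptors was 0.011, and that of all genes -0.0034. At an unadjusted p under 0.05 there were 4 receptors by edgeR, 4 by DESeq2 and 5 by limma-voom, beside 1936 of 13815 genes by edgeR. After adjustment, 3 receptors passed by DESeq2 (Cd68, Trem2 and Lrp1), and 1 by limma-voom (Trem2). Both comparisons use the same PBS libraries, so their values are not independent of each other.

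Between the exosomes, no receptor passed the threshold, beside 0.695% of all genes (0.282% higher and 0.413% lower). The counts of receptors past it were 0 by edgeR, DESeq2 and limma-voom, and at an unadjusted p under 0.05 they were 0, 0 and 1, beside 1126 of 13815 genes by edgeR. The libraries did not overlap for 3 receptors, beside 14.0% of all genes, with Cd163 higher and Trem2 and Mertk lower after ApoE-deficient exosomes. For 8 receptors the 95% intervals of the difference were narrower than for Marco and Cd163. Several still reached differences as large as those that passed against PBS. The intervals ran from -1.62% to 5.47% for Lrp1, from -1.58% to 8.90% for Cd36, from -6.10% to 1.68% for Cd68 and from -7.27% to 0.81% for Trem2. For Stab1 the interval was -7.51% to 0.751%, for Mertk -9.48% to 1.12%, for Msr1 -9.63% to 4.38% and for Scarb1 -5.08% to 12.2%. For Marco and Cd163, with few counts, the intervals reached from -90.6% to 39.98% and from -8.78% to 220.3%. These intervals are unadjusted and do not show that the exosomes act alike. With the groups given exosomes averaged and set against PBS, only Lrp1 passed, with a rise of 6.13% (95% interval 2.97% to 9.39%), beside 5.31% of all genes (2.52% higher and 2.79% lower). In that comparison all libraries given exosomes were separate from PBS for 2 receptors, Lrp1 with higher and Marco with lower values, beside 7.93% of all genes. Marco entered the test through the groups where it was higher, so its separation carries no weight.

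**Figure D2:**
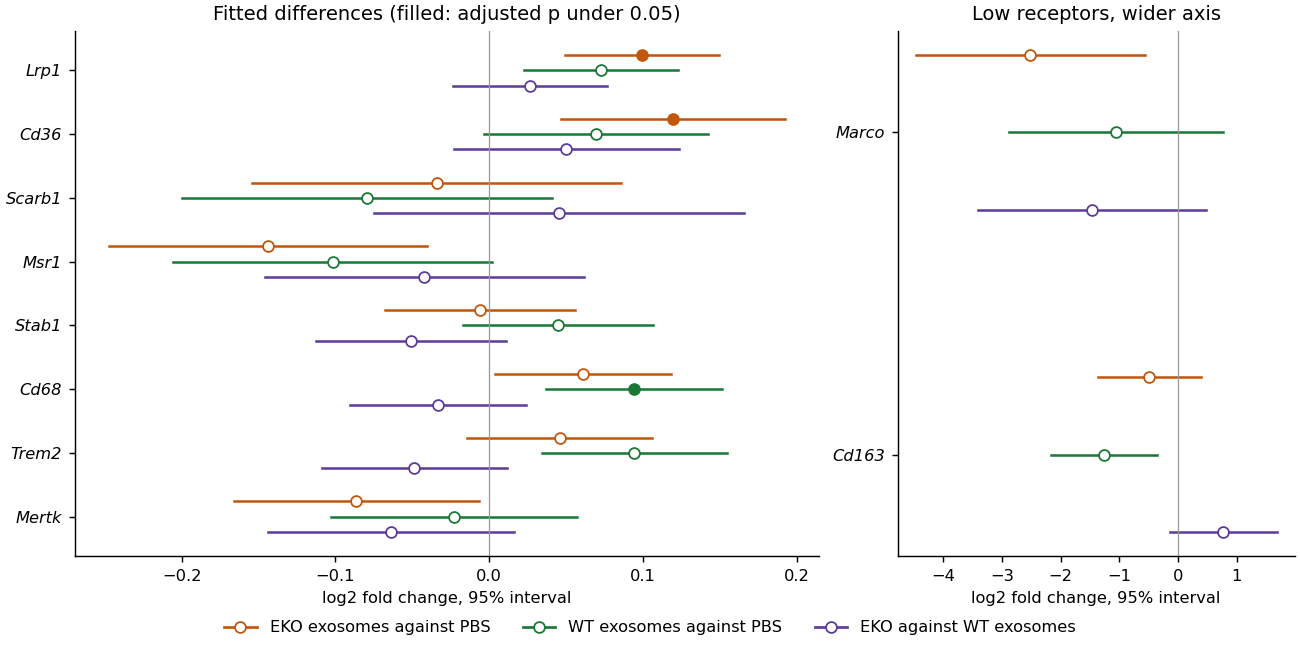
Log2 fold changes of the 10 receptors (x axis) with unadjusted 95% intervals from edgeR, coloured by comparison (EKO, ApoE-deficient; WT, wild-type), with Marco and Cd163 on a wider axis of their own. Filled points passed the adjusted threshold, Lrp1 and Cd36 for ApoE-deficient exosomes against PBS and Cd68 for wild-type exosomes against PBS.

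Lrp1 (ENSMUSG00000040249, chr10:127538161-127621148 on the minus strand in GRCm38) encodes the endocytic receptor of ApoE-bearing remnants. The PBS libraries held 6137, 6283 and 6523 CPM. The libraries of wild-type exosomes held 6606, 6787 and 6527 CPM, and those of ApoE-deficient exosomes 6851, 6819 and 6623 CPM. All 6 libraries given exosomes lay above all 3 PBS libraries, although the lowest of them, at 6526.5 CPM, was close to the highest PBS library, at 6523.1 CPM, and the groups given exosomes overlapped. The means were 6314 ± 195, 6640 ± 134 and 6764 ± 123 CPM. For ApoE-deficient exosomes against PBS the log2 fold change was 0.099 ± 0.025 (SE), with an edgeR adjusted p of 0.0109. For wild-type exosomes it was 0.073 ± 0.025 and did not pass (edgeR adjusted p = 0.098), and for both averaged it was 0.086 ± 0.021 (edgeR adjusted p = 0.00983). The first call ended without replicate 1 of ApoE-deficient exosomes (edgeR adjusted p = 0.0877), without replicate 2 of them (0.0613), without replicate 1 of PBS (0.108) and with limma-voom (0.132), while the log2 fold change stayed between 0.080 and 0.12. The averaged call ended without replicate 1 of PBS (0.142) and with limma-voom (0.12). The wild-type difference passed with DESeq2 (adjusted p = 0.0403) and without replicate 3 of PBS (edgeR adjusted p = 0.0158).

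Cd36 (ENSMUSG00000002944, chr5:17781690-17888801 on the minus strand) encodes the class B receptor that takes up long-chain fatty acids and oxidised LDL. The PBS libraries held 569, 599 and 593 CPM. The libraries of wild-type exosomes held 606, 620.5 and 622 CPM, and those of ApoE-deficient exosomes 594, 642 and 678 CPM. The libraries of wild-type exosomes lay above those of PBS without overlap, whereas replicate 1 of ApoE-deficient exosomes fell within the PBS range. The log2 fold change was 0.12 ± 0.036 (SE) for ApoE-deficient exosomes against PBS, with an edgeR adjusted p of 0.0498, just inside the threshold. It was 0.069 ± 0.036 for wild-type exosomes (edgeR adjusted p = 0.398). The call ended without replicate 2 (edgeR adjusted p = 0.168) or 3 (0.476, log2 fold change 0.071) of ApoE-deficient exosomes, without replicate 1 (0.244), 2 (0.06) or 3 (0.0755) of PBS and without replicate 1 of wild-type exosomes (0.0608). It also ended with median-of-ratios size factors (0.0544) and with only the 6 libraries compared (0.0632), and it held in 7 of 15 alternatives. Scarb1 (ENSMUSG00000037936, chr5:125277087-125341094 on the minus strand), which encodes the HDL receptor SR-BI, held 107, 102 and 122 CPM after PBS. It held 101, 111 and 102 CPM after wild-type and 109, 103 and 111 CPM after ApoE-deficient exosomes. All groups of Scarb1 overlapped, and none of its comparisons passed (edgeR adjusted p of 0.911, 0.632 and 0.927).

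The class A receptors Msr1 and Marco had lower mean values after exosomes, and neither passed the threshold. Msr1 (ENSMUSG00000025044, chr8:39581685-39642673 on the minus strand), the receptor for acetylated LDL, held 139.8, 159.9 and 153 CPM after PBS. It held 139.6, 149 and 134 CPM after wild-type and 133, 140.4 and 137 CPM after ApoE-deficient exosomes. Replicate 1 of PBS was the low library of its group and overlapped both others. For ApoE-deficient exosomes against PBS the log2 fold change of Msr1 was -0.14 ± 0.051 (SE; edgeR adjusted p = 0.127), and without replicate 1 of PBS it was -0.19 and passed (0.03). For wild-type exosomes it was -0.10 ± 0.051 (edgeR adjusted p = 0.372). Marco (ENSMUSG00000026390, chr1:120474538-120505024 on the minus strand), a receptor for bacteria and particles, was at the edge of detection, with 22, 45 and 27 counts after PBS. It had 10, 18 and 15 counts after wild-type and 11, 0 and 6 counts after ApoE-deficient exosomes. By CPM of the unscaled library totals, on which the filter works, Marco reached the filter level of 0.306 in 3 PBS libraries, 2 of wild-type and 0 of ApoE-deficient exosomes, so it entered the test through the groups where it was higher. The library with 0 counts allows up to 0.105 CPM, a limit set by 3 counts that covers counting error only. The log2 fold changes were -2.52 ± 0.96 for ApoE-deficient exosomes (edgeR adjusted p = 0.177) and -1.05 ± 0.90 for wild-type exosomes (0.699), with PBS libraries above all others.

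Cd163 (ENSMUSG00000008845, chr6:124304656-124330527 on the plus strand), the haemoglobin receptor, was also near the floor, with 75, 54 and 88 counts after PBS. It had 34, 32 and 21 counts after wild-type and 71, 33 and 55 counts after ApoE-deficient exosomes. The libraries of wild-type exosomes lay below those of both other groups in CPM, which overlapped each other. The log2 fold change was -1.26 ± 0.45 for wild-type exosomes against PBS (edgeR adjusted p = 0.117), -0.49 ± 0.43 for ApoE-deficient exosomes (0.755) and 0.77 ± 0.45 between them (0.714). Stab1 (ENSMUSG00000042286, chr14:31139013-31168641 on the minus strand), which encodes stabilin-1, did not pass in any comparison. It held 2199, 2357 and 2406 CPM after PBS, 2352, 2487 and 2341 after wild-type and 2348, 2344 and 2239 after ApoE-deficient exosomes, and all groups overlapped. Its log2 fold changes were -0.0062 and 0.045 against PBS and -0.051 between the exosomes (edgeR adjusted p of 0.975, 0.578 and 0.73). Exons of other genes overlap 1.09% of the Stab1 exon length and 0% of that of the other receptors. It is not known whether counting used strand, so reads in such overlaps cannot be assigned.

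Cd68 (ENSMUSG00000018774, chr11:69664213-69666153 on the minus strand) encodes the lysosomal glycoprotein macrosialin, a common macrophage marker. The PBS libraries held 2507, 2454 and 2532 CPM, those of wild-type exosomes 2615, 2614 and 2769 CPM, and those of ApoE-deficient exosomes 2517, 2597 and 2702 CPM. All libraries of wild-type exosomes were above those of PBS, and replicate 1 of ApoE-deficient exosomes lay within the PBS range. The log2 fold change was 0.094 ± 0.028 (SE) for wild-type exosomes, with an edgeR adjusted p of 0.049. It was 0.061 ± 0.028 for ApoE-deficient exosomes (edgeR adjusted p = 0.33). The call ended without replicate 3 of wild-type exosomes (edgeR adjusted p = 0.32, log2 fold change 0.069), the library that stood apart on component 1, without replicate 1 (0.102) or 2 (0.194) of PBS and without replicate 2 of ApoE-deficient exosomes (0.0651). It also ended with no filter on low counts (0.0512), with limma-voom (0.0757) and with only the 6 libraries compared (0.0651). Cd68 rose while 6 of the 8 macrophage markers fell in the same comparison.

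Trem2 (ENSMUSG00000023992, chr17:48346401-48354147 on the plus strand), the lipid-sensing receptor of lipid-laden macrophages and microglia, did not pass in any comparison. It held 1036, 1052 and 1117 CPM after PBS, 1131, 1158 and 1134 after wild-type and 1090.0, 1119 and 1100.2 after ApoE-deficient exosomes. The 3 libraries of wild-type exosomes lay above all others, and those of ApoE-deficient exosomes overlapped with PBS. The log2 fold change for wild-type exosomes against PBS was 0.094 ± 0.030 (SE; edgeR adjusted p = 0.0664). It passed with DESeq2 (adjusted p = 0.0155), with limma-voom (0.0123) and by edgeR without replicate 3 of PBS (0.00734). Between the exosomes it was -0.049 ± 0.030 (edgeR adjusted p = 0.738). Mertk (ENSMUSG00000014361, chr2:128698956-128802894 on the plus strand), the kinase that engages dying cells, held 242, 250.4 and 233 CPM after PBS. It held 233, 243 and 238 CPM after wild-type and 230.1, 223 and 230.2 CPM after ApoE-deficient exosomes. All libraries of ApoE-deficient exosomes lay below all other libraries. The log2 fold change of Mertk for ApoE-deficient exosomes against PBS was -0.087 ± 0.039 (SE; edgeR adjusted p = 0.313), and between the exosomes it was -0.064 ± 0.039 (0.743).

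**Figure D3:**
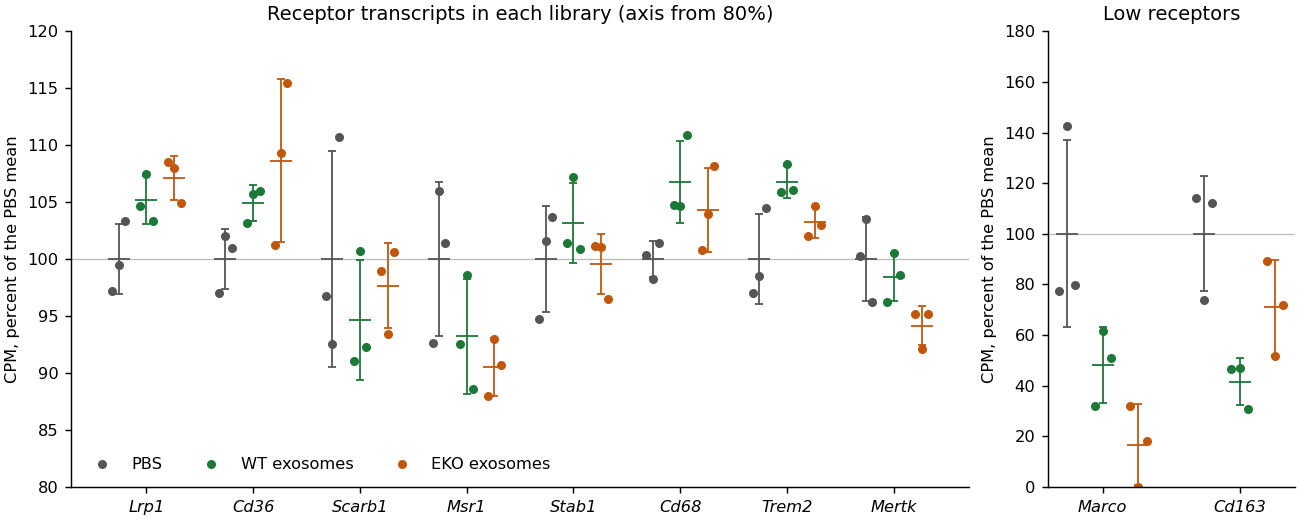
CPM of each receptor in each library as a percent of the PBS mean, with points for libraries, dashes for group means and error bars for 1 SD (EKO, ApoE-deficient; WT, wild-type). The left axis starts at 80% and the right panel, for Marco and Cd163, at 0; all Lrp1 points after exosomes lie above those of PBS, while Scarb1, Msr1 and Stab1 points overlap.

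The genes most like the 3 receptors that passed were sought among 9232 genes with a mean of at least 5 CPM, over log2 CPM in 9 libraries. This is a description, since libraries of a group share their treatment and few libraries give many high correlations. For Lrp1 these were Atp6v0e (Pearson r = 0.977), Otulin (0.949) and Mgat4b (0.946). For Cd36 they were Alg8 (0.955), Creb3 (0.945) and Map3k20 (0.936), and for Cd68 they were Farsb (0.954), Psmd14 (0.951) and Mpeg1 (0.931).

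Several ligands and bridging proteins of these receptors passed the threshold. Of 14 listed, 13 were tested. After ApoE-deficient exosomes 3 rose and 6 fell, after wild-type exosomes 3 rose and 4 fell, and between the exosomes 5 were lower after ApoE-deficient exosomes (Thbs1, C1qa, C1qb, C1qc and Pltp). Of all genes, 4.23%, 4.11% and 0.695% passed in these comparisons. The medians of log2 fold change over the 13 tested were -0.11, 0.0019 and -0.063. Thbs1, a CD36 ligand, held 273, 283 and 296 CPM after PBS, 193, 229 and 219 after wild-type and 171, 169 and 159.9 after ApoE-deficient exosomes. These groups were fully separate, with log2 fold changes against PBS of -0.77 ± 0.048 and -0.41 ± 0.048 and -0.36 ± 0.048 between the exosomes (edgeR adjusted p of 7.33e-14, 2.12e-07 and 1.4e-05). C1qa, a chain of the complement protein C1q that coats dying cells, fell by 0.46 ± 0.032 and 0.28 ± 0.032 on the log2 scale and was -0.18 ± 0.032 between the exosomes (edgeR adjusted p of 9.49e-13, 1.47e-07 and 0.000877).

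Gas6, the bridge from phosphatidylserine to MERTK and AXL, rose from 656, 643 and 669 CPM after PBS to 792, 796 and 778 after wild-type and 789.6, 758 and 767 after ApoE-deficient exosomes. Its log2 fold changes were 0.23 ± 0.030 (edgeR adjusted p = 9.72e-07) for ApoE-deficient and 0.26 ± 0.030 (1.4e-07) for wild-type exosomes. The other MERTK bridge, Pros1, did not pass (log2 fold changes of -0.080 and -0.087, edgeR adjusted p of 0.83 and 0.774). Lgals3, galectin-3, rose by 0.29 on the log2 scale in both comparisons (edgeR adjusted p of 5.4e-09 and 8.86e-09). Mfge8, a bridge to integrins that was chosen after its values were seen, rose by 0.19 and 0.26 (edgeR adjusted p of 0.0148 and 0.000842), and the first call ended without replicate 1 or 3 of ApoE-deficient exosomes or replicate 1 or 2 of PBS, with a highest adjusted p of 0.155. Apoe itself, the ligand of LRP1 and TREM2, did not pass, with log2 fold changes of -0.028, 0.032 and -0.060 (edgeR adjusted p of 0.729, 0.607 and 0.384). Other members of the list are named after their values were seen. C1qb and C1qc both fell by 0.25 after ApoE-deficient exosomes (edgeR adjusted p of 1.42e-07 and 1.43e-07). After wild-type exosomes C1qb fell by 0.10 (edgeR adjusted p = 0.0288), and C1qc had a value of -0.065 and did not pass (0.269). The dependence of that C1qb call on single libraries is not reported here. Lpl, lipoprotein lipase, fell by 0.11 after ApoE-deficient exosomes (edgeR adjusted p = 0.0201) and by 0.23 after wild-type exosomes (1.85e-06), the first ending without replicate 1 of ApoE-deficient exosomes (0.261), without replicate 2 or 3 of PBS and with limma-voom. Pltp, the phospholipid transfer protein, fell by 0.16 after ApoE-deficient exosomes (edgeR adjusted p = 0.003), which ended without replicate 3 of PBS and with limma-voom (0.104), and had a value of 0.023 after wild-type exosomes (0.862). Exons of other genes overlap 19.3% of the Pltp exon length.

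**Figure D4:**
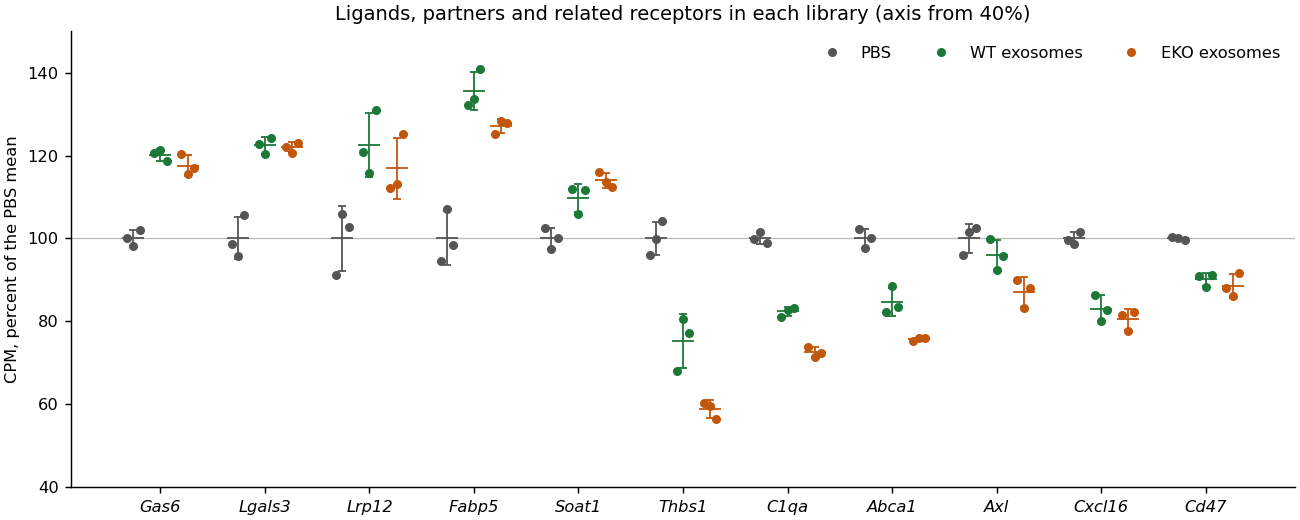
CPM in each library as a percent of the PBS mean for 11 ligands, partners and related receptors, with points for libraries, dashes for group means and error bars for 1 SD, on an axis that starts at 40%. Thbs1 and C1qa points lie in 3 separate groups, lowest after ApoE-deficient exosomes (EKO), and Gas6 points after both exosomes lie above those of PBS.

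Among other lipoprotein receptors and their partners, 12 of 15 were tested, with medians of -0.024 and 0.0002 against PBS. Lrp12 rose by 0.22 after ApoE-deficient exosomes (edgeR adjusted p = 0.0124) and by 0.29 after wild-type exosomes (0.000819), the first ending without replicate 3 of ApoE-deficient exosomes (0.186) or replicate 1 of PBS. Sorl1, a sorting receptor that binds ApoE, fell in both by 0.13 (edgeR adjusted p = 0.0468) and 0.17 (0.00382), and the first call ended without any library other than replicate 1 of wild-type exosomes (up to 0.287) and without the filter on low counts. Sort1 fell after wild-type exosomes by 0.21 (edgeR adjusted p = 0.00182), with -0.11 after ApoE-deficient exosomes (0.228). Mylip, a ubiquitin ligase induced by LXR, was chosen after its values were seen. It fell after wild-type exosomes by 0.13 (edgeR adjusted p = 0.0485), which ended without any library other than replicate 1 of PBS (up to 0.2), without the filter and with only the 6 libraries compared. Among the other scavenger receptors, 11 of 14 were tested (medians of -0.14 and -0.17). None rose past the threshold, beside 1.82% and 1.93% of all genes. Cxcl16, which also binds oxidised LDL, fell by 0.31 and 0.27 (edgeR adjusted p of 1.64e-07 and 4.05e-06), and 18.3% of its exon length overlaps other genes. Clec7a fell after wild-type exosomes (-0.17, edgeR adjusted p = 0.0253), which ended without replicate 1 or 2 of PBS or of wild-type exosomes (up to 0.131). Its value after ApoE-deficient exosomes was -0.14 (edgeR adjusted p = 0.0785), with all libraries below PBS.

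Of 14 apoptotic cell receptors, 10 were tested, with 2 higher and 3 lower after ApoE-deficient and 1 and 1 after wild-type exosomes (medians of 0.0035 and 0.003). Of all genes, 4.23% and 4.11% passed in these comparisons. Axl, the relative of MERTK, held 356, 376 and 380.1 CPM after PBS, 369.98, 342.5 and 355 after wild-type and 334, 308 and 326 after ApoE-deficient exosomes. Its libraries after ApoE-deficient exosomes lay below all others. The log2 fold change against PBS was -0.20 ± 0.038 (edgeR adjusted p = 0.000585), against -0.060 ± 0.038 for wild-type exosomes (0.545), and the difference between the exosomes, -0.14 ± 0.038, did not pass (0.0841). Cd300ld fell after both exosomes by 0.28 and 0.15 (edgeR adjusted p of 1.5e-05 and 0.0325). The second call ended without any PBS library, without replicate 1 or 2 of wild-type exosomes and without replicate 2 of ApoE-deficient exosomes (up to 0.138). Cd93, once described as a C1q receptor, rose after ApoE-deficient exosomes by 0.13 (edgeR adjusted p = 0.00785), ending without replicate 3 of them (0.0689). Its value after wild-type exosomes was 0.10 (edgeR adjusted p = 0.0509), with all libraries above PBS. The integrin chain Itgb5 fell after ApoE-deficient exosomes by 0.14 (edgeR adjusted p = 0.0125), ending without replicate 2 or 3 of them or replicate 3 of PBS (up to 0.159). Itgb3 and Cd300lf were chosen after their values were seen. Itgb3 rose after ApoE-deficient exosomes (0.54, edgeR adjusted p = 0.046), ending without replicate 1 or 3 of them, replicate 1 or 2 of PBS, or replicate 1 of those of wild-type mice (up to 0.326). Its value after wild-type exosomes was 0.36 (edgeR adjusted p = 0.279). Cd300lf rose after wild-type exosomes (0.32, edgeR adjusted p = 0.0192), ending without replicate 1 of them or replicate 1 or 3 of PBS (up to 0.143).

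The next lists cover the machinery inside the cell, and their counts stand beside 4.23% and 4.11% of all genes that passed against PBS. For Trem2 signalling and shedding, 11 of 12 genes were tested (medians of -0.057 and -0.077) and Adam10, a sheddase of TREM2, was the only gene to pass in the pairwise comparisons, lower after ApoE-deficient exosomes (-0.14, edgeR adjusted p = 0.0316). This ended without any library of ApoE-deficient exosomes, without replicate 1 or 2 of PBS (up to 0.183) and without the filter on low counts. After wild-type exosomes Adam10 had a value of -0.12 (edgeR adjusted p = 0.0881). With both exosomes averaged against PBS, Adam10 (-0.13, edgeR adjusted p = 0.0159) and the sheddase Adam17 (-0.12, 0.0192) passed. The averaged call of Adam10 ended without replicate 2 of ApoE-deficient exosomes, 1 or 2 of PBS or 3 of wild-type exosomes (up to 0.0992), and that of Adam17 without replicate 2 of ApoE-deficient exosomes, 1 of PBS or 3 of wild-type exosomes (up to 0.335). The adaptor Tyrobp had log2 fold changes of -0.044 and -0.00028 (edgeR adjusted p of 0.695 and 0.998). Of 13 engulfment genes tested (medians of 0.0038 and -0.055), the kinase Pak1 fell by 0.34 (edgeR adjusted p = 0.00089) after ApoE-deficient exosomes and by 0.24 (0.0291) after wild-type exosomes. The second ended without replicate 1 of PBS, without any library of wild-type exosomes (up to 0.239) and with only the 6 libraries compared. The kinase Lyn fell after ApoE-deficient exosomes (-0.15, edgeR adjusted p = 0.0394), ending without any of their libraries or replicate 2 or 3 of PBS (up to 0.259). Its value after wild-type exosomes was -0.087 (edgeR adjusted p = 0.373). Of 7 genes that restrain engulfment (medians of -0.011 and 0.007), Cd47 fell by 0.17 and 0.15 (edgeR adjusted p of 0.00229 and 0.0119), the second ending without replicate 2 of wild-type exosomes (0.0799). No gene of these 3 lists passed between the exosomes.

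Genes that handle lipid after uptake changed in both directions, and all 11 were tested. After ApoE-deficient exosomes 4 rose and 1 fell, and after wild-type exosomes 5 rose and 1 fell, with medians of 0.051 and 0.059. Of all genes, 4.23% and 4.11% passed in these comparisons. Fabp5, a fatty acid carrier, rose by 0.35 ± 0.051 and 0.44 ± 0.051 on the log2 scale (edgeR adjusted p of 1.06e-05 and 2.12e-07). Soat1, which esterifies cholesterol, rose by 0.19 and 0.13 (edgeR adjusted p of 8.43e-05 and 0.00701), the second ending without replicate 1 of wild-type exosomes or replicate 2 of PBS (up to 0.0613). Abca1, the cholesterol exporter, fell by 0.40 ± 0.033 and 0.24 ± 0.033 (4.93e-11 and 4.05e-06 by edgeR), and by 0.16 between the exosomes (0.00456), which ended without replicate 2 of wild-type exosomes (0.107). Plin2 rose after wild-type exosomes (0.17, edgeR adjusted p = 0.000343) and had a value of 0.10 after ApoE-deficient exosomes (0.0721). Npc1, Fabp4 and Lipa were chosen after their values were seen. Npc1, which exports cholesterol from lysosomes, rose by 0.13 and 0.14 (edgeR adjusted p of 0.0126 and 0.00532). The first ended without replicate 1 or 3 of ApoE-deficient exosomes or replicate 1 or 2 of PBS (up to 0.131), and the second without replicate 2 of PBS (0.0687). Fabp4 rose by 0.42 and 0.39 (edgeR adjusted p of 0.00511 and 0.012), both ending without replicate 2 of PBS and the second also without replicate 3 of wild-type exosomes (0.223). Lipa, the lysosomal acid lipase, was higher after ApoE-deficient than after wild-type exosomes (0.12, edgeR adjusted p = 0.0159), ending without replicate 1 or 3 of the former or replicate 2 or 3 of the latter (up to 0.194). Of 14 transcription factors that act on receptor genes (medians of -0.068 and -0.066), those that fell after ApoE-deficient exosomes included Maf (-0.24) and Spi1 (-0.15), with edgeR adjusted p of 2.95e-06 and 0.00331, and 2 fell after wild-type exosomes (Maf -0.16 and Mitf -0.24, with 0.00125 and 0.00189). Spi1, which encodes PU.1, held 431, 441 and 439 CPM after PBS and 397, 395 and 392 after ApoE-deficient exosomes. After wild-type exosomes it held 411, 398 and 412 CPM, also below all PBS libraries (-0.10, edgeR adjusted p = 0.0705).

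**Figure D5:**
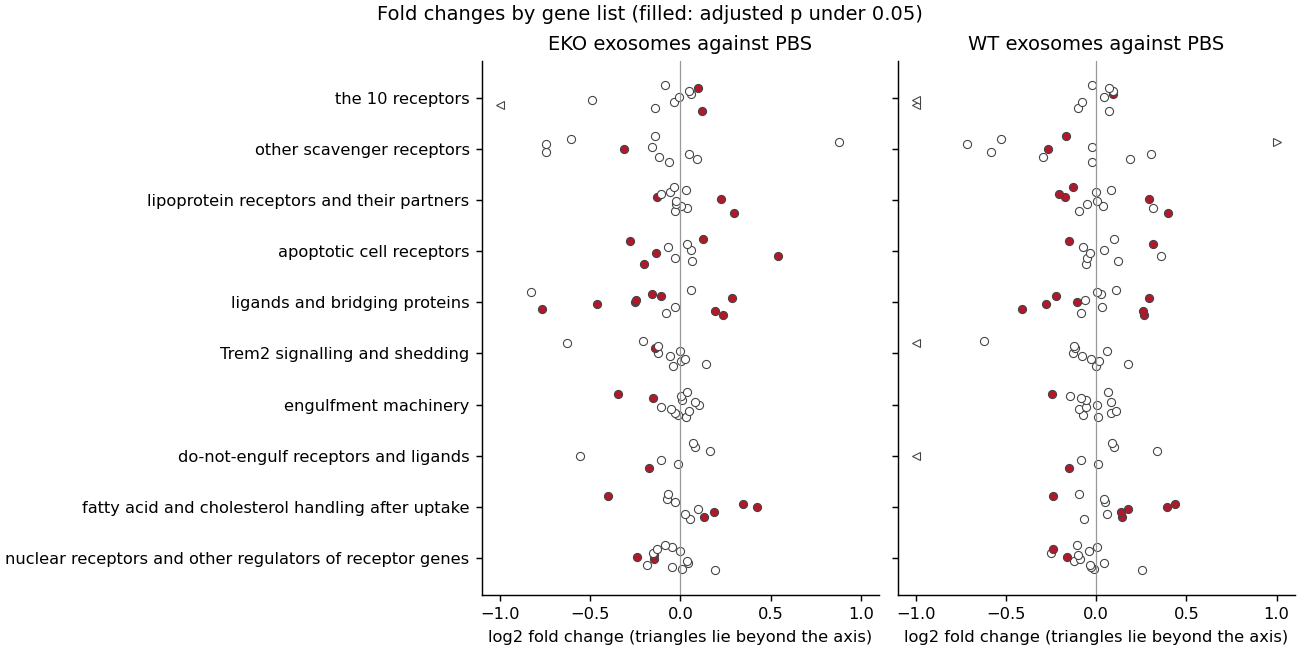
Log2 fold change against PBS (x axis) of every tested gene of each list (rows), for ApoE-deficient (EKO, left) and wild-type (WT, right) exosomes, with filled points for genes past the adjusted threshold and triangles for values beyond the axis. The ligands and bridging proteins have 9 filled points on the left and 7 on the right, and the 10 receptors have 2 and 1. Of all genes, 4.23% and 4.11% passed.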

How the data were processed

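The deposited table holds raw counts of reads per Ensembl gene, with 1 column for each of 9 libraries (total RNA, mRNA library kit, per the labels' protocols) and 0 columns of other samples. Per the submitters' processing notes, STAR 2.7.5c and build GRCm38 were used. Annotation release, strand setting and trimming were not given in the sources used here. All 55536 gene IDs matched GENCODE M21. Reads shared by overlapping genes cannot be assigned.

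Counts were tested in R 4.3.3 with edgeR 4.0.16: filterByExpr at a minimum count of 10, TMM factors, and a robust quasi-likelihood fit with the group as its only term over all 9 libraries, Benjamini-Hochberg adjusted over 13815 genes with a threshold of 0.05. The biological coefficient of variation was 12%. An adjusted p printed alone in parentheses comes from the test named in its sentence. Intervals are 95% and unadjusted. The scripts were tested on simulated data, where recovery was required only at a true log2 fold change of 1. That is larger than any receptor difference that passed. Groups of 3 are too small for an exact permutation test of 1 gene to pass, so none is given. Library depth limits Marco and Cd163.

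The members and gene lists were chosen with earlier results of these data known, so no test was made over a list. All 10 receptors are named. In each list up to 4 genes with the lowest p may be named, with Tyrobp, Gas6, Pros1 and Apoe, and for each receptor that passed the 3 genes most like it. Alternatives were DESeq2 1.42.0, limma-voom (limma 3.58.1), median-of-ratios factors, no filter, a replicate block, only the 6 libraries compared and leaving out each library. A length from the longest protein-coding transcript was added after seeing the data. Promoters are from RefSeq. Some genes of the lists are not reported here.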

Additional observations from a re-analysis of the deposited data

How the results depend on the processing

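Of 589 values of single receptors under the alternatives, 543 kept their direction and their side of the threshold, 21 lost the threshold, 17 gained it and 8 changed sign. For ApoE-deficient exosomes against PBS, the count of receptors past it was 2 and became 1 with median-of-ratios factors, with limma-voom and with only the 6 libraries compared, and 0 to 2 when a library was left out. For wild-type exosomes it was 1 and became 3 with DESeq2, 0 with no filter and with the 6 libraries compared, and 0 to 3 when a library was left out. For both averaged it was 1 and became 2 with DESeq2 and 1 to 3 when a library was left out. Between the exosomes it was 0 in every setting. Over all genes, 96 passed between the exosomes, 157 with DESeq2 and 52 to 109 when a library was left out, and of the averaged comparison 733 and 479 to 689. The causes were not tested.

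The values that changed sign did so when a library was left out. They ran from -0.085 to 0.045 for Scarb1 and from -0.042 to 0.020 for Stab1 (0.014 and 0.0074 in other settings) with ApoE-deficient exosomes against PBS. They ran from -0.051 to 0.0048 for Mertk with wild-type exosomes, from -0.077 to 0.00024 for Msr1 between the exosomes, and, averaged, from -0.11 to 0.022 for Scarb1 and from -0.017 to 0.045 for Stab1.

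Same-numbered libraries did not deviate together from their group means (r from -0.0291 to 0.0357). With 3 libraries a group this cannot decide whether the numbers pair them, and no source states a pairing. With a replicate block, 2 receptors passed for ApoE-deficient exosomes, 3 for wild-type exosomes (Cd68, Trem2 and Lrp1), 3 averaged and 0 between the exosomes, and over all genes 662, 669 and 144 passed in the pairwise comparisons.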

Other observations

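Several receptors and partners related to those above were barely present. Over all libraries, the highest count of the tethering receptor Timd4 was 12, that of the MERTK relative Tyro3 was 11, that of the oxidised LDL receptor Olr1 was 10 and that of Scara5 was 12. Vldlr reached 25 counts, Lrp2 reached 6, and Havcr1 and Adgrb1 reached 3 each. The LRP1 ligand A2m was at 0 in all 9 libraries. None of these passed the filter on low counts, so no difference between treatments was tested for them.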
